A study of Homo sapiens with 4 samples.

Results

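The 4 TEAD transcription factors (TEAD1, TEAD2, TEAD3 and TEAD4), their coactivators YAP1 and WWTR1 (the gene of TAZ), and 4 genes that YAP and TAZ are known to switch on (CTGF, CYR61, AMOTL2 and LATS2) were followed in HT-29 cells after silencing of APC. These 10 genes were chosen by name among the 19729 genes listed for each library, and all 10 were found by their Ensembl identifiers. HT-29 is an established human colorectal cancer line that is APC-mutant, microsatellite stable and carries a BRAF mutation. All cells had been stably transduced with a lentivirus that makes a short hairpin RNA when doxycycline (DOX) is added. In the APC shRNA group the hairpin targeted APC, and in the NonS group it was non-silencing. Both groups received 500 ng/ml DOX for 72 h, so neither group shows cells without DOX or without a hairpin. Each group had 2 libraries, numbered I and II, which are biological duplicates from a repeated experiment. A single APC hairpin was sequenced, and effects of that hairpin other than on APC cannot be told apart from the silencing.

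The Hippo pathway is a kinase cascade that restrains growth. Its upstream kinases activate LATS1 and LATS2, which phosphorylate YAP and TAZ and keep them out of the nucleus. When the cascade is weak, YAP and TAZ enter the nucleus and bind TEAD proteins, which supply the contact with DNA that the coactivators lack. CTGF and CYR61, which encode secreted matricellular proteins, are the classic readouts of this step. AMOTL2 and LATS2 are target genes that act back on YAP as inhibitors. In the intestine YAP is best known for its role in regeneration, and APC is best known as a scaffold of the complex that degrades β-catenin.

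The values are the whole numbers deposited per gene and library. They behave as levels already scaled per kb and per library rather than as reads, so the number of reads behind a value is unknown, and a value is called a level here. Differences are given on the log2(level + 1) scale, APC shRNA minus NonS, from limma, and a gene was called at a Benjamini-Hochberg adjusted p under 0.05 over the 5376 genes with a mean level of at least 10. The pseudocount of 1 makes differences of low genes smaller than their true size. TEAD2 rose 5.26-fold after APC silencing and was the only member that passed this test. AMOTL2 was 2.68-fold higher but had an adjusted p of 0.062 in limma. With the replicate number as a block it passed (adjusted p = 0.0470 in limma). The other TEAD factors and YAP1 did not pass, CTGF was lower by its values while CYR61 was higher, and WWTR1 was listed at 0 in every library.

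Sequence upstream of the start sites was read to show where the DNA motifs of this pathway lie. RefSeq promoter windows on GRCh38.p14 were found for 7 of the 10 genes (TEAD2, TEAD3, YAP1, WWTR1, CTGF, AMOTL2 and LATS2), with 10 start sites in all. In the 250 bases upstream of each start, the TEAD motif GGAATG and the TCF/LEF motif (CTTTGAT or CTTTGAA) were searched on both strands. Of all 35116 promoter windows of this length, 11.89% held the TEAD motif and 5.94% held the TCF/LEF motif. CTGF held 3 copies of the TEAD motif, all on the strand of the gene and within the stretch shown first, at chr6:131951452-131951551 on the minus strand. Neither TEAD2 window held either motif. The stretch upstream of the outer TEAD2 start that lies outside annotated exons is shown second (chr19:49362458-49362666, minus strand), because TEAD2 is the member that rose. AMOTL2 held 1 motif of each kind at its inner start, both inside annotated exonic bases. The TCF/LEF match is shown next (chr3:134374532-134374558, minus strand), and the TEAD match on the opposite strand follows it (chr3:134374501-134374526, minus strand). The only match in YAP1, also in exonic bases, is shown last (chr11:102110275-102110300, plus strand). Capitals mark the motifs, and a match is a run of letters, not a shown binding site.
CTGF: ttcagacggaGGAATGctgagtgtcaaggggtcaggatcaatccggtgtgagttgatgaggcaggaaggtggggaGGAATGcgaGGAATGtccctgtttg
TEAD2: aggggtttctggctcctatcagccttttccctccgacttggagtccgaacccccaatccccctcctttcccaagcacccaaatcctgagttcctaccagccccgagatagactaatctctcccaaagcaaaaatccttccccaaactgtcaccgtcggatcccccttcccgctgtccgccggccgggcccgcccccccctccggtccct
AMOTL2, TCF/LEF motif: ttgtggttcgCTTTGATcccgaggggg
AMOTL2, TEAD motif: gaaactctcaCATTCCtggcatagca
YAP1: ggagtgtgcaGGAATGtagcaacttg

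APC itself stood at 3 in the first NonS library and at 0 in the other 3, a level too low to check the silencing here. The paper reports that the hairpin silenced APC at the mRNA and protein level in this line. It also lists APC among the downregulated genes of its own comparison of the same sequencing. Of 8 Wnt target genes listed as a check, all 7 that were tested were called higher, where 4.33% of all genes tested were. They were NKD1, NOTUM, SP5, ASCL2, RNF43, AXIN2 and ZNRF3, with differences from 1.07 for RNF43 to 6.08 for NOTUM. With NonS the levels were 0 and 0 for NKD1, 1 and 1 for NOTUM, 3 and 4 for SP5, and 4 and 4 for ASCL2. NKD1, NOTUM, SP5 and ASCL2 thus reached a mean level of 10 only through the APC shRNA libraries. The filter kept them because they were high there, so the 7 of 7 cannot be weighed against the 4.33%. This list was chosen with earlier results of these data known. The paper names AXIN2, NOTUM, SP5, NKD1 and ASCL2 as upregulated in the same sequencing. Their rise is therefore not an independent check of the silencing. Of 9 epithelial markers, 7 had a mean level of at least 10, from VIL1 (29 to 39) to KRT18 (1550 to 2083). The intestinal factors CDX1 (2, 2, 0 and 0) and CDX2 (0, 0, 2 and 4, NonS libraries first) were at or near 0. Levels of 8 fibroblast and mesenchymal markers summed to 0 or 1 in each library, and those of 4 endothelial markers to 0. Of 4 haematopoietic markers, CD14 was listed between 1 and 4 and the other 3 at 0. Library totals ranged from 398338 to 413595, and the median difference over all genes tested was 0.03.

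TEAD2 (ENSG00000074219) lies on chromosome 19 of GRCh38 from 49340595 to 49362457 on the minus strand. With the NonS hairpin its level was 28 in replicate I and 26 in replicate II. With the APC hairpin it was 135 in replicate I and 149 in replicate II. The groups were far apart, and replicates of 1 group differed by far less than the groups did. The mean was 27 ± 1.41 with NonS and 142 ± 9.90 with APC shRNA (each SD, n = 2). On the log2(level + 1) scale the difference was 2.35 (standard error 0.09, 95% interval 2.09 to 2.62, adjusted p = 0.0423 in limma). This adjusted p was the smallest in the table and was shared by 122 genes. TEAD2 stood at rank 20 of the 5376 genes by size of increase. Taken by replicate number, the difference was 2.23 in replicate I and 2.47 in replicate II. With any 1 of the 4 libraries left out it stayed between 2.28 and 2.42, but with a lone library in 1 group the adjusted p of limma was between 0.154 and 0.194. TEAD2 shares 319 exonic bases with CD37 on the opposite strand, and the strand setting of the counting is not given in the sources used here. CD37, a tetraspanin of leukocytes, was listed at 0 with NonS and at 3 with APC shRNA in either replicate, levels far below those of TEAD2.

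TEAD3 (ENSG00000007866), on chromosome 6 from 35473597 to 35497076, had levels of 20 and 24 with NonS against 24 and 25 with APC shRNA. The upper NonS library tied with the lower APC shRNA library, and the difference of 0.15 did not pass (95% interval -0.20 to 0.50, adjusted p = 0.389 in limma). TEAD4 (ENSG00000197905), on chromosome 12 from 2959330 to 3040673, was listed at 12 and 10 with NonS against 10 and 9 with APC shRNA. Its difference was -0.19 (95% interval -0.57 to 0.19, adjusted p = 0.350 in limma). TEAD1 (ENSG00000187079), on chromosome 11 from 12674591 to 12944483, was listed at 13 and 9 with NonS against 18 and 9 with APC shRNA. In both groups replicate I was above replicate II, and the difference of 0.22 was smaller than its standard error of 0.42. It turned to -0.24 without APC shRNA replicate I and to -0.02 without NonS replicate II. The interval for TEAD1, from -1.08 to 1.52, is wide enough to hold a change of more than 2-fold in either direction, whereas those for TEAD3 and TEAD4 are not.

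**Figure D1:**
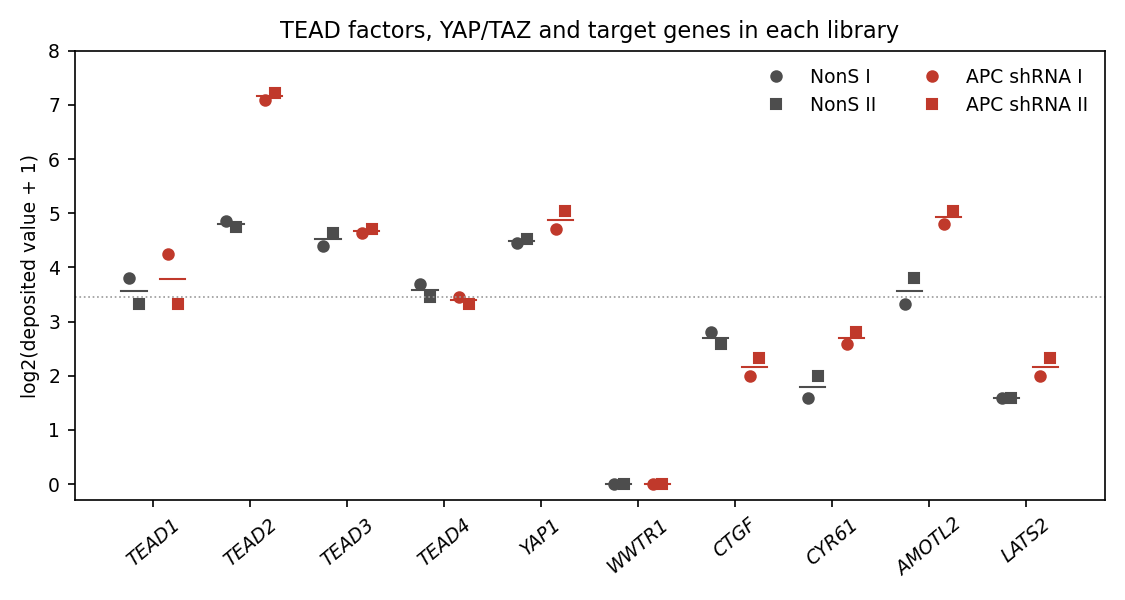
Level of each gene in each library, as log2(deposited value + 1) on the vertical axis; circles are replicate I, squares replicate II, grey NonS and red APC shRNA, and short lines are group means (n = 2). The dotted line marks a level of 10. The 2 red TEAD2 points (135 and 149) stand highest of all, AMOTL2 is separated too, and the WWTR1 points lie at 0.

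TEAD2 also took a larger share of its family after silencing. The 4 TEAD levels summed to 73 and 69 in NonS and to 187 and 192 in APC shRNA libraries. Without TEAD2 the sums were 45 and 43 in NonS and 52 and 43 in APC shRNA libraries, and these overlap. TEAD2 made up 38.4% and 37.7% of the TEAD sum in NonS, and 72.2% and 77.6% in APC shRNA libraries. TEAD3 made up 27.4% and 34.8% in NonS, and 12.8% and 13.02% after silencing. The ratio of TEAD2 to TEAD3 was 1.40 and 1.08 in NonS, and 5.63 and 5.96 in APC shRNA libraries. With 2 libraries a group these shares and ratios are a description, and they rest on levels being comparable between genes.

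**Figure D2:**
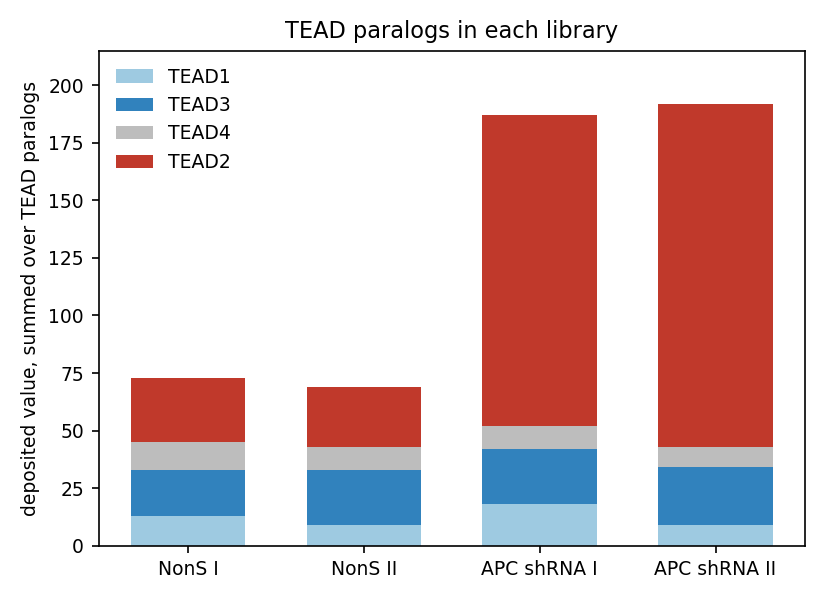
Deposited values of the 4 TEAD paralogs stacked for each library; the vertical axis is the summed value and each colour is 1 paralog. Sums are 73 and 69 in NonS and 187 and 192 in APC shRNA libraries, and the red TEAD2 part makes up most of the difference.

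YAP1 (ENSG00000137693), the main partner of the TEAD proteins, lies on chromosome 11 from 102110461 to 102233423. Its level was 21 and 22 with NonS against 25 and 32 with APC shRNA. The groups did not overlap, but the APC shRNA replicates differed from each other by as much as the group means did. The difference of 0.38 did not pass (95% interval -0.08 to 0.84, adjusted p = 0.185 in limma). The ratio of TEAD2 to YAP1 was 1.33 and 1.18 with NonS against 5.40 and 4.66 with APC shRNA. WWTR1 (ENSG00000018408), on chromosome 3 from 149517235 to 149736714, was listed at 0 in all 4 libraries, so no fold is given. It shares 795 exonic bases with the antisense gene WWTR1-AS1, and YAP1 shares 628 with the antisense gene AP000942.2, neither of which was analysed here.

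AMOTL2 (ENSG00000114019) encodes an angiomotin family protein that binds YAP and holds it at junctions and in the cytoplasm. It lies on chromosome 3 from 134355874 to 134375479, on the minus strand. Its level was 9 and 13 with NonS against 27 and 32 with APC shRNA. Both APC shRNA libraries were above both NonS libraries, and the gap between the groups was larger than the spread within them. The mean was 11 ± 2.83 with NonS and 29.5 ± 3.54 with APC shRNA (each SD, n = 2). The difference of 1.36 (standard error 0.22, 95% interval 0.68 to 2.05) had an unadjusted p of 0.00747 and an adjusted p of 0.062 in limma, at rank 81 of 5376. It passed the threshold in 7 of 12 alternative fits of the 4 libraries, whose adjusted p ranged from 0.00328 to 0.0999 in limma. These 7 were the 3 scalings, robust moderation, removal of a GC content trend, a replicate block, and the block with that removal. AMOTL2 shares 187 exonic bases with the pseudogene RPL39P5 on the same strand, which was not analysed here.

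CTGF, CYR61 and LATS2 had mean levels under 10 and were left out of the test above. CTGF (ENSG00000118523, chromosome 6, 131948176 to 131951373) was listed at 6 and 5 with NonS against 3 and 4 with APC shRNA. CYR61 (ENSG00000142871, chromosome 1, 85580761 to 85583962) was listed at 2 and 3 with NonS against 5 and 6 with APC shRNA. Both encode closely related secreted proteins and are read as 1 output of YAP, yet the CTGF levels after silencing lay below the NonS levels and those of CYR61 above. LATS2 (ENSG00000150457, chromosome 13, 20973032 to 21061547), the kinase that phosphorylates YAP, was listed at 2 with NonS in either replicate against 3 and 4 with APC shRNA. CTGF shares 195 exonic bases with the antisense gene AL133346.1, which was not analysed here. At such levels a rounding step of 1 is a large part of the value. In a fit of the 11786 genes with a mean level of at least 1, the differences were -0.54 for CTGF (95% interval -1.16 to 0.09, adjusted p = 0.212 in limma), 0.90 for CYR61 (0.16 to 1.65, adjusted p = 0.142 in limma) and 0.58 for LATS2 (0.06 to 1.09, adjusted p = 0.155 in limma). None of the 3 passed, and CYR61 and LATS2 had an unadjusted p under 0.05. In this fit 6.13% of all genes were called higher and 3.65% lower, and at an unadjusted p under 0.05 the shares were 16.8% and 11.2%. TEAD2 had an adjusted p of 0.00634 there.

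**Figure D3:**
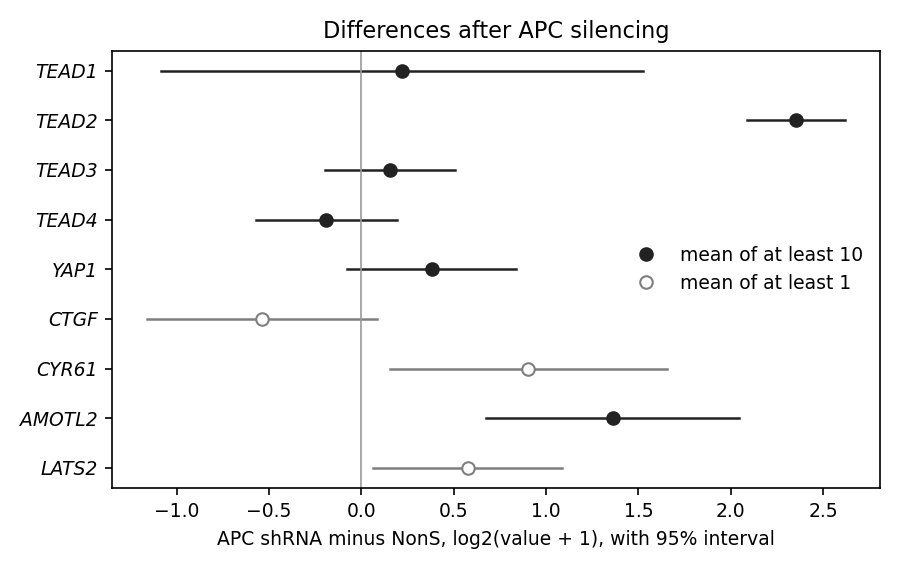
Difference between APC shRNA and NonS libraries for 9 of the genes on the log2(value + 1) scale (horizontal axis), with the 95% interval of limma. Filled points come from the fit of genes with a mean of at least 10 and open points from the fit with a mean of at least 1; WWTR1, listed at 0, is not drawn. TEAD2 (2.35) stands apart from TEAD1, TEAD3 and TEAD4, whose intervals hold 0.

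Among the 6 members tested, 1 was called higher, where 4.33% of all genes tested were, and 0 were called lower by limma, where 3.70% were. At an unadjusted p under 0.05 these counts were 2 and 0, where 19.8% of all genes tested were higher and 15.8% lower. Levels of both APC shRNA libraries were above both NonS libraries in 3 of the 6 (TEAD2, AMOTL2 and YAP1) and below in 0, where 33.0% and 27.5% of all genes tested were so placed. The median difference of the 6 was 0.30, beside 0.03 over all genes tested. In NonS the order of the levels was TEAD2 (27), TEAD3 (22), YAP1 (21.5), then TEAD1, TEAD4 and AMOTL2 at 11 each, CTGF (5.5), CYR61 (2.5), LATS2 (2) and WWTR1 (0). TEAD3 and YAP1 overlapped in NonS, as did TEAD1, TEAD4 and AMOTL2. After silencing TEAD2 (142) was followed by AMOTL2 (29.5), YAP1 (28.5) and TEAD3 (24.5). AMOTL2 and YAP1 overlapped there, as did YAP1 with the upper TEAD3 library.

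The wider pathway was read from 5 lists with 72 genes, of which 28 had a mean level of at least 10. Of these, 5 were called higher and 1 lower in limma, where 4.33% and 3.70% of all genes tested were, which is also the background of the counts for each list. Their median difference was 0.00, beside 0.03 over all genes tested. Among 15 kinases and scaffolds of the cascade, 5 were tested and 1 rose: MAP4K4, a kinase upstream of LATS1 and LATS2, was listed at 10 and 11 with NonS against 17 and 16 with APC shRNA (difference 0.61, adjusted p = 0.0490 in limma). WWC1, the scaffold KIBRA, and MOB1A, a cofactor of the LATS kinases, were the most abundant of those tested. WWC1 was listed between 18 and 24 and MOB1A between 14 and 26, and neither passed. STK4 and STK3 are the mammalian Hippo kinases. STK4 was listed at 14 and 14 with NonS against 13 and 15 with APC shRNA. STK3, with a mean level under 10, was listed at 10 and 6 with NonS against 5 and 3 with APC shRNA. It did not pass in the fit with a mean level of at least 1 (adjusted p = 0.326 in limma).

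Among 15 adaptors and cofactors 6 were tested and 1 rose. CSNK1E, a casein kinase that acts on YAP and in Wnt signaling, was listed at 16 and 15 with NonS against 28 and 27 with APC shRNA (difference 0.79, adjusted p = 0.0423 in limma). YWHAE and YWHAB, which bind phosphorylated YAP in the cytoplasm, were the most abundant. YWHAE was listed at 252 and 229 with NonS against 179 and 180 with APC shRNA, a difference of -0.42 that did not pass (adjusted p = 0.0689 in limma). Among 13 polarity and cadherin genes 7 were tested and 1 rose: LLGL1, a basolateral polarity scaffold, stood at 12 with NonS in either replicate against 17 and 18 with APC shRNA (difference 0.51, adjusted p = 0.0465 in limma). CDH1 (E-cadherin) was listed at 98 and 119 with NonS against 74 and 85 with APC shRNA, and CTNNA1 (α-catenin) between 91 and 96, and neither passed.

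Of the 17 further genes of the YAP/TAZ target signature, only 5 were tested, and none of these was called in limma. Of the 5 that were tested, 0 were higher and 1 was lower at an unadjusted p under 0.05, where 19.8% and 15.8% of all genes tested were. GADD45A, a stress-response gene, was listed at 12 and 16 with NonS against 20 and 28 with APC shRNA (difference 0.73, adjusted p = 0.149 in limma). NT5E, the surface enzyme CD73, was listed at 20 and 26 with NonS against 10 and 13 with APC shRNA (difference -0.94, adjusted p = 0.0850 in limma). Both are separated between the groups, in opposite directions, where 33.0% of all genes tested lay above and 27.5% below without overlap. That is 1 above and 1 below among the 5 tested, which does not set this list apart. The other 12 had mean levels under 10, among them ANKRD1, listed at 0 in NonS and at 1 and 2 after silencing, and IGFBP3, listed at 0 in all 4 libraries. NUAK2 was listed at 1 and 2 with NonS against 6 and 6 with APC shRNA. CRIM1 went the other way, from 4 and 4 to 2 and 3. In the fit with a mean level of at least 1 neither passed (adjusted p = 0.0958 for NUAK2 and 0.224 for CRIM1 in limma). The paper, with DESeq2 on the same sequencing, does list NUAK2 among its upregulated genes.

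Among 12 other genes often used as YAP/TAZ readouts, 5 were tested, 2 rose and 1 fell. AREG, the EGFR ligand amphiregulin, was listed at 89 and 73 with NonS against 231 and 208 with APC shRNA (difference 1.43, adjusted p = 0.0452 in limma). CCND1, the gene of cyclin D1, was listed at 28 and 26 with NonS against 65 and 84 with APC shRNA (difference 1.42, adjusted p = 0.0465 in limma). BIRC5, the gene of survivin, fell from 27 and 28 to 17 and 18 (difference -0.62, adjusted p = 0.0452 in limma). MYC was listed at 114 and 89 with NonS against 85 and 65 with APC shRNA and did not pass. In the fit of genes with a mean level of at least 1, CCND1 (adjusted p = 0.0612 in limma) and MAP4K4 (adjusted p = 0.0565 in limma) no longer passed. BTRC, from the adaptors and cofactors, was called higher there (adjusted p = 0.00592 in limma). Its levels were low and equal within groups, at 3 and 3 with NonS against 4 and 4 with APC shRNA. CCND1, MYC and AREG are also known as targets of other pathways, Wnt signaling among them, and the part of TEAD proteins in their levels was not tested.

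**Figure D4:**
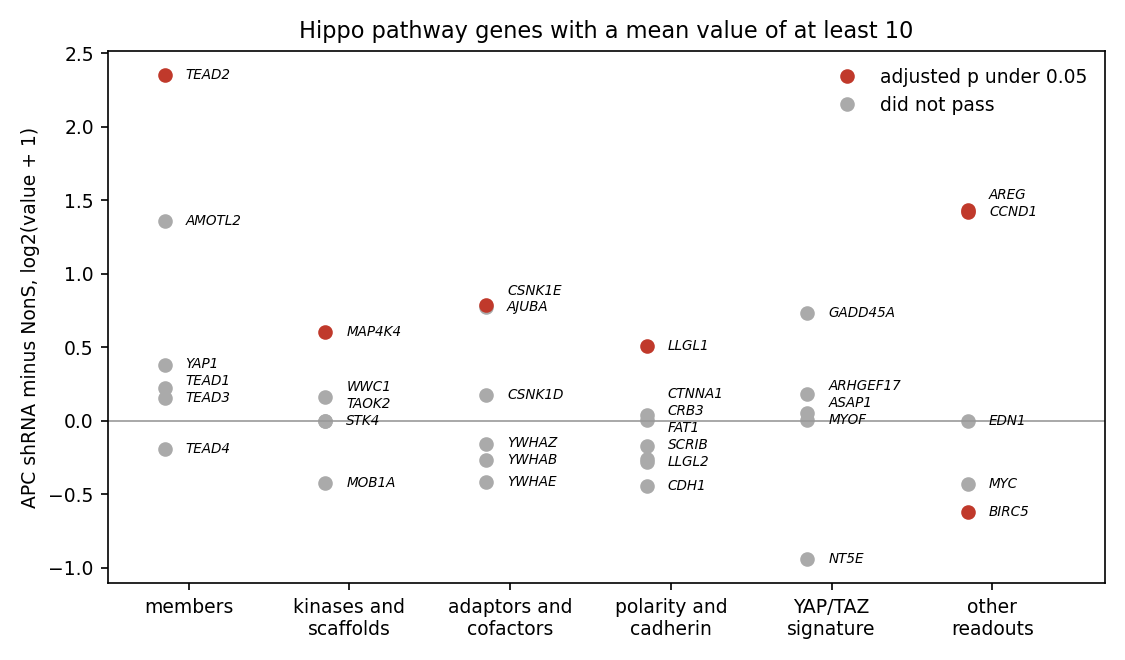
Difference between APC shRNA and NonS libraries (vertical axis, log2(value + 1)) for each tested gene of the 10 members and of the 5 pathway lists; red points have an adjusted p under 0.05 in limma and grey points do not. TEAD2 at 2.35 is the highest point, AREG and CCND1 follow among the red ones, and BIRC5 at -0.62 is the only red point below 0.

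The genes whose profile over the 4 libraries was nearest to that of TEAD2 were MGAT5, RASSF10, FAM222A, DBN1 and KREMEN1, by Euclidean distance of centred log2(level + 1) values (0.15 to 0.31). MGAT5, an enzyme that branches N-glycans, was listed at 22 and 22 with NonS against 99 and 115 with APC shRNA. KREMEN1, a receptor for the Wnt inhibitor DKK1, was listed at 4 and 5 with NonS against 23 and 25 with APC shRNA. With 4 libraries in 2 groups, such a distance mostly ranks genes by how similar their group difference is.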

How the data were processed

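RNA of HT-29 cells was sequenced as polyadenylated RNA on 50 bp single reads with 2 libraries per group, grouped by the sample titles. Per the paper's methods, the authors filtered reads, trimmed polyA tails, mapped them with TopHat2 to human genome assembly 38, counted them with htseq-count on GENCODE v29 and ran DESeq2 1.4.1. The submitters' processing notes name hg19 instead. For each library the authors deposited whole numbers by gene, which are treated here as a score of unstated scale. This rests on the values: for low genes the variance between replicates was 0.484 (NonS) and 0.364 (APC shRNA) times that of independent reads, and values times the length of the longest transcript in kb summed to between 980841 and 984873 in each library, nearly the same in all 4, although the plain totals differed more. Depth is therefore unknown, and no counting interval is given. A deposited table of the authors' own comparison (mean, log2 fold change, fold change, adjusted p) was not used. Unused columns of per-sample values numbered 0.

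Values were tested as log2(value + 1) with limma 3.58.1 in R 4.3.3 (lmFit, eBayes with a mean-variance trend), as deposited, keeping genes whose mean reached 10, and p-values were adjusted by Benjamini-Hochberg. The prior degrees of freedom were 1.14. In 132 of the genes tested both groups had equal replicates, and limma offset their zero variances. An exact permutation test of 2 libraries against 2 cannot give a two-sided p under 0.333. The test was tried on simulated data. Named genes were all 10 members, the genes of each list past the threshold (at most 6), the 2 most abundant of each list, APC, and the 5 nearest to TEAD2 by profile. STK3, STK4, BTRC, ANKRD1, NUAK2, CRIM1, IGFBP3 and CD37 were named after their values were seen. The members, lists, threshold and test were chosen with earlier results of these data known. Places, lengths and overlaps come from GENCODE v29, and promoter windows from RefSeq (GRCh38.p14). Alternatives covered scaling, filters, pseudocounts, moderation, a replicate block, GC content (a loess trend with a span of 0.5) and each library left out. Tables and figures were made with Python 3.11.15, pandas 2.3.3, scipy 1.17.1 and matplotlib 3.10.9.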

Additional observations from a re-analysis of the deposited data

How the results depend on the processing

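The number of members called higher, 1 with limma, was 2 with median-of-ratios scaling, upper-quartile scaling, scaling to the same total, robust moderation, and the GC content trend removed. The second was AMOTL2, with an adjusted p from 0.0219 to 0.0378 in these limma fits. With a replicate block the count was also 2 (AMOTL2, adjusted p = 0.0470 in limma), and with a replicate block and the GC content trend removed it was 3 (TEAD2, AMOTL2 and YAP1, the last with a difference of 0.51 and an adjusted p of 0.0141 in limma). The experiment was repeated, but no label says that the numbers I and II mark its runs and only 2 pairs exist, so the numbers were not taken to pair the libraries. Differences between replicates I and II did correlate between the groups across the genes tested (0.724). The replicate number thus goes with a difference that both groups share, and the main fit leaves it out. Across all genes the block moved the calls from 233 higher and 199 lower to 523 and 500. With the main settings, the count was 0 at an adjusted p under 0.01 and a fold change over 4. The smallest adjusted p of any gene tested was 0.0423 in that limma fit, so no gene could pass. At an unadjusted p under 0.05 the count was 2. When 1 library was left out the count was between 0 and 0, as limma then called no gene of the series at all. The number of members called lower was 0 under every alternative.

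TEAD2 had an adjusted p under 0.05 in all 13 alternative fits that kept 4 libraries, with the smallest difference (2.20) at pseudocount 5, the largest (2.39) at pseudocount 0.1, and adjusted p from 0.00306 to 0.0481 in limma. TEAD2 did not meet the stricter threshold given above with the main settings, where no gene could. Also on unscaled values, it met that threshold with robust moderation (difference 2.35, adjusted p = 0.00509 in limma). The same held in the fit with a mean level of at least 1 (adjusted p = 0.00634 in limma). The other fits of 4 libraries with unscaled values and no GC content step did not meet it (adjusted p from 0.0345 to 0.0481 in limma). TEAD2 also met it with upper-quartile scaling (adjusted p = 0.00533 in limma) and scaling to the same total (0.00750). Removal of the GC content trend gave the same outcome without a block (0.00770) and with it (0.00306). With median-of-ratios scaling TEAD2 did not meet it (adjusted p = 0.0120 in limma). The only reversals were those of TEAD1, to -0.24 without APC shRNA replicate 1 and to -0.02 without NonS replicate 2, in a range from -0.24 to 0.68 when 1 library was left out. Values of CTGF, CYR61 and LATS2 kept their signs and moved beyond the spread between replicates mainly with the pseudocount, by the construction of the scale. The number of all genes called ranged from 139 higher and 134 lower with at least 10 in every library to 1215 and 1249 with the replicate block and the GC content trend removed. Rounding to whole numbers limits what can be said of members at levels under 10.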
